A study of Homo sapiens with 9 samples.

Results

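The 31 genes described here encode the enzymes that make dolichol, the sugar nucleotides and the lipid-linked oligosaccharide from which N-glycans are built. They were chosen by name, as the rows of the gene table that carry these symbols, and all 31 were found among its 58735 genes and were among the 15555 genes with enough reads to be tested. N-glycans are assembled on dolichol, a long polyisoprenoid lipid of the endoplasmic reticulum (ER) membrane. Sugars are added one at a time from UDP-GlcNAc and GDP-mannose on the cytosolic face, the product is flipped, and further mannose and glucose are added on the lumenal face from dolichol-phosphate-mannose and dolichol-phosphate-glucose before the oligosaccharyltransferase passes the finished glycan to proteins entering the ER. Several of these genes, among them GFPT1, are known targets of the unfolded protein response, which cells use to adjust the folding capacity of the ER.

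The RNA came from VCaP, an established human prostate cancer cell line that carries the TMPRSS2-ERG fusion, grown with serum and the androgen dihydrotestosterone and transfected by lipofection. The 3 groups of 3 libraries each were siCtrl, a control siRNA in cells given as WT, and siCDO1A and siCDO1C, which are different siRNAs against CDO1, the cysteine dioxygenase that turns cysteine into cysteine sulfinic acid, in cells given as CDO1 knockdown. The comparisons ask which transcripts change when CDO1 is reduced, each siRNA being set against siCtrl. The knockdown was transient and in a single cell line, and in a bulk sample a change in the make-up of the culture and a change of RNA per cell cannot be told apart.

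Libraries held between 12061295 and 16073698 counts over genes, so that 3 counts correspond to 0.187 to 0.249 CPM (counts scaled to library size after TMM normalization), and the members had between 83 and 5495 counts in every library. CDO1 was at 13.96 ± 0.277 CPM (SD, n = 3) in siCtrl, 2.50 ± 0.674 in siCDO1A and 1.69 ± 0.974 in siCDO1C, a reduction of 82.1% and 87.9%. A two-sided exact permutation test gave p = 0.1 for each, the smallest value that 3 against 3 libraries allow. In replicates 1 to 3, CDO1 was at 3.28, 2.05 and 2.18 CPM in siCDO1A and 1.09, 2.81 and 1.15 in siCDO1C. The highest siCDO1C value was thus that of replicate 2. The prostate marker KLK2 (2872 to 3963 CPM) and ERG (169 to 219 CPM) were present in all 9 libraries, while the leukocyte and endothelial markers PTPRC, CD3E and PECAM1 stayed at or under 0.372 CPM and the fibroblast collagen COL1A1 between 1.63 and 4.67 CPM. The library siCDO1C replicate 2 stood apart from the other siCDO1C libraries. Its mean chi-square per gene against them was 13.2 and 13.1, compared with 2.65 between replicates 1 and 3. The library siCDO1A replicate 3 lay apart by less, at 5.88 and 6.18 against 2.48 between replicates 1 and 2. Results are given below with and without these libraries where a call or count turned on them.

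Few of these genes changed when CDO1 was reduced. With siCDO1A, 1 of 31 rose and 2 fell, which is 9.68% of them, at an adjusted p of at most 0.05 (quasi-likelihood test of edgeR). Of all genes tested, 14.8% passed this threshold, 7.37% higher and 7.48% lower. With siCDO1C, 1 of 31 rose and 1 fell, or 6.45%, against 4.77% of all genes, 2.27% higher and 2.5% lower. These counts depended on single libraries. With siCDO1A, 5 members and 22.2% of all genes passed without siCDO1A replicate 3. With siCDO1C, 6 members and 13.3% of all genes passed without siCDO1C replicate 2, and 0 members without siCtrl replicate 1, siCtrl replicate 3 or siCDO1C replicate 1, where 1.79%, 1.69% and 2.37% of all genes passed, and 1 member without siCtrl replicate 2 (1.75%). With the batch, which the labels number like the replicates, as a block, 3 members passed with siCDO1A beside 8.73% of all genes and 1 member with siCDO1C beside 4.08%. GMPPA alone passed with both siRNAs and in the same direction, 1 of 31, and 3.62% of all genes did so. The genes that rose were DPM3 with siCDO1A and ALG9 with siCDO1C, and those that fell were GFPT1 and GMPPA with siCDO1A and GMPPA with siCDO1C.

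The changes were small. The median absolute log2 fold change over the 31 genes was 0.10 with siCDO1A and 0.10 with siCDO1C, and over all genes tested 0.15 and 0.14. The members had mean levels of 8.02 to 323 CPM, and the genes tested were not matched to that range here. Whether the lower median goes with level was not tested. The signed median was -0.01 with siCDO1A and -0.07 with siCDO1C, where the median of all genes was 0.01 and 0.00. The member that moved farthest changed by 1.37-fold with siCDO1A (DPM3) and 1.41-fold with siCDO1C (GMPPA). The data were precise enough to bound the rest: of the 28 members that did not pass with siCDO1A, all 28 had a 95% interval inside 1.5-fold in either direction, as had 28 of 29 with siCDO1C, ALG10 being outside it.

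**Figure D1:**
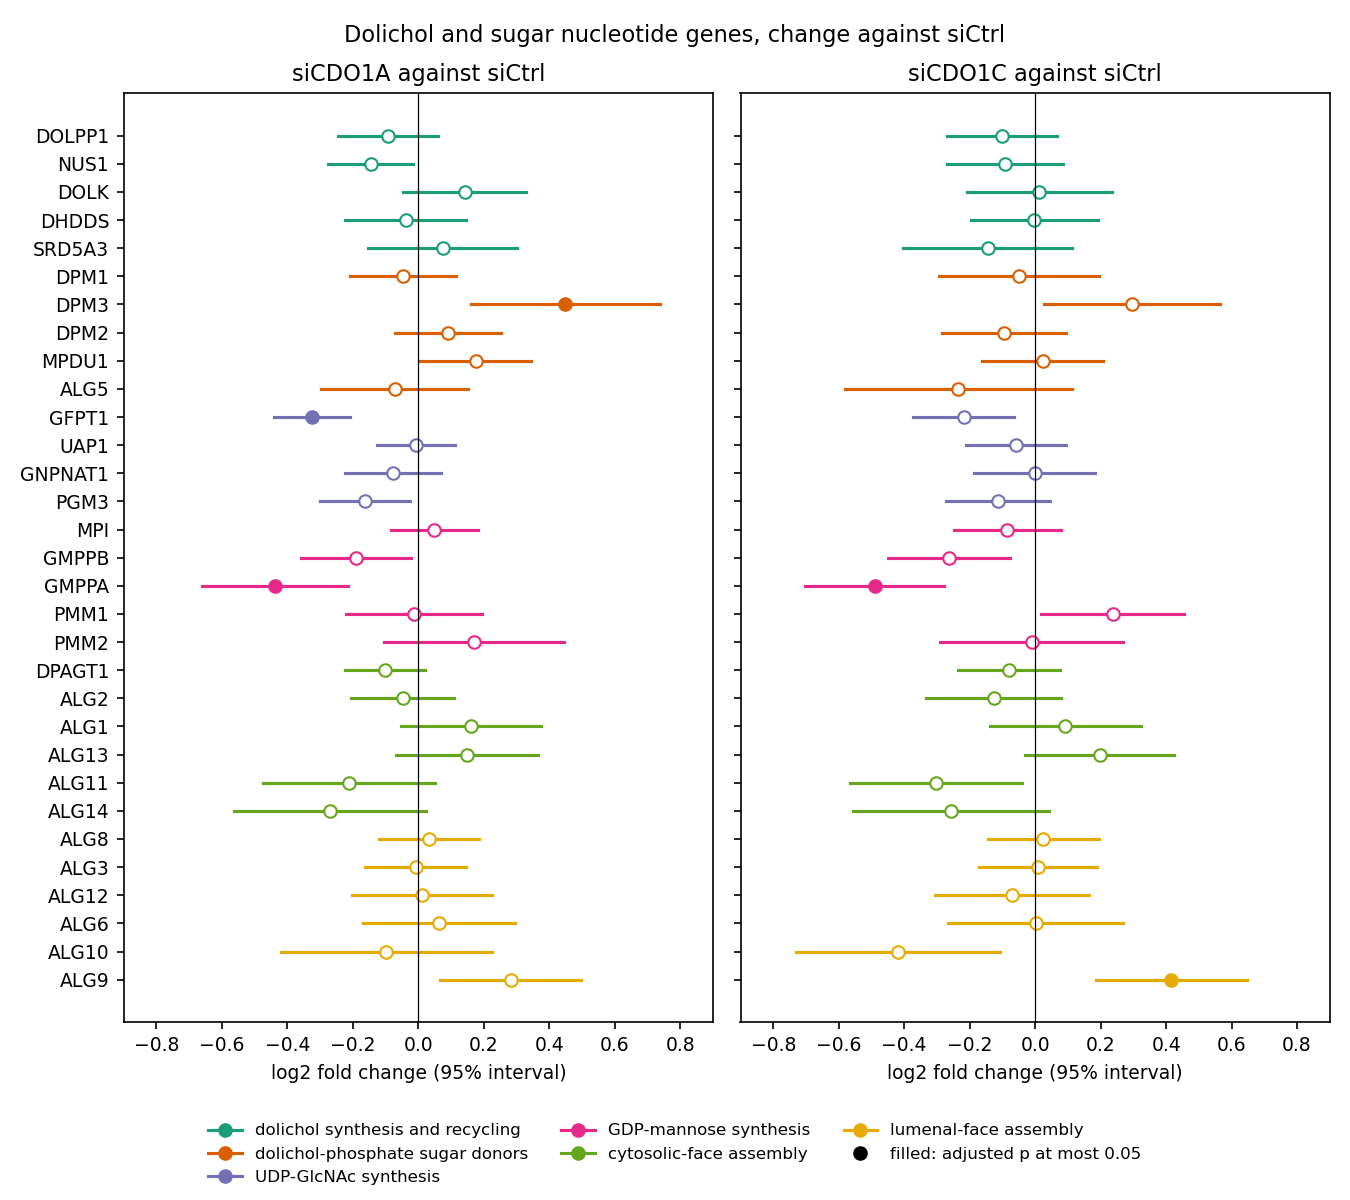
Log2 fold change of the 31 genes against siCtrl (x axis) with 95% intervals (lines) from the edgeR fit, 3 libraries per group, ordered by role and coloured by it, siCDO1A on the left and siCDO1C on the right. Filled points passed an adjusted p of at most 0.05, and they are GMPPA in both panels, GFPT1 and DPM3 with siCDO1A and ALG9 with siCDO1C.

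The levels of these genes spanned a wide range in siCtrl. Per length (FPKM, the normalized count divided by the gene length in the deposited table), GFPT1 at 41.1 ± 2.40 and UAP1 at 40.7 ± 0.588 (SD, n = 3) were the highest and did not differ beyond their spread. They were followed by DPM1 at 33.0 ± 0.541, DOLPP1 at 26.7 ± 1.43, NUS1 at 25.7 ± 1.03 and DPAGT1 at 20.7 ± 0.381 FPKM, of which DOLPP1 and NUS1 lay within their spread of each other. ALG14 at 0.936 ± 0.0920, PMM2 at 1.35 ± 0.111, ALG11 at 1.51 ± 0.0578 and ALG9 at 1.92 ± 0.123 FPKM were the lowest. The opening enzymes of the branches differed in this measure. GFPT1 for UDP-GlcNAc was at the top, MPI for GDP-mannose at 9.80 ± 0.608 FPKM and, for dolichol, DHDDS at 4.73 ± 0.128 beside its partner NUS1. The lengths in the deposited table were not checked against the transcripts expressed. Ranks and ratios per length between genes, here and below, are therefore uncertain. MPI, with a length of 9090 bases, was at 89.1 CPM in siCtrl, and GFPT1, with 8866 bases, at 365 CPM. Most of the assembly transferases were below 5 FPKM.

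**Figure D2:**
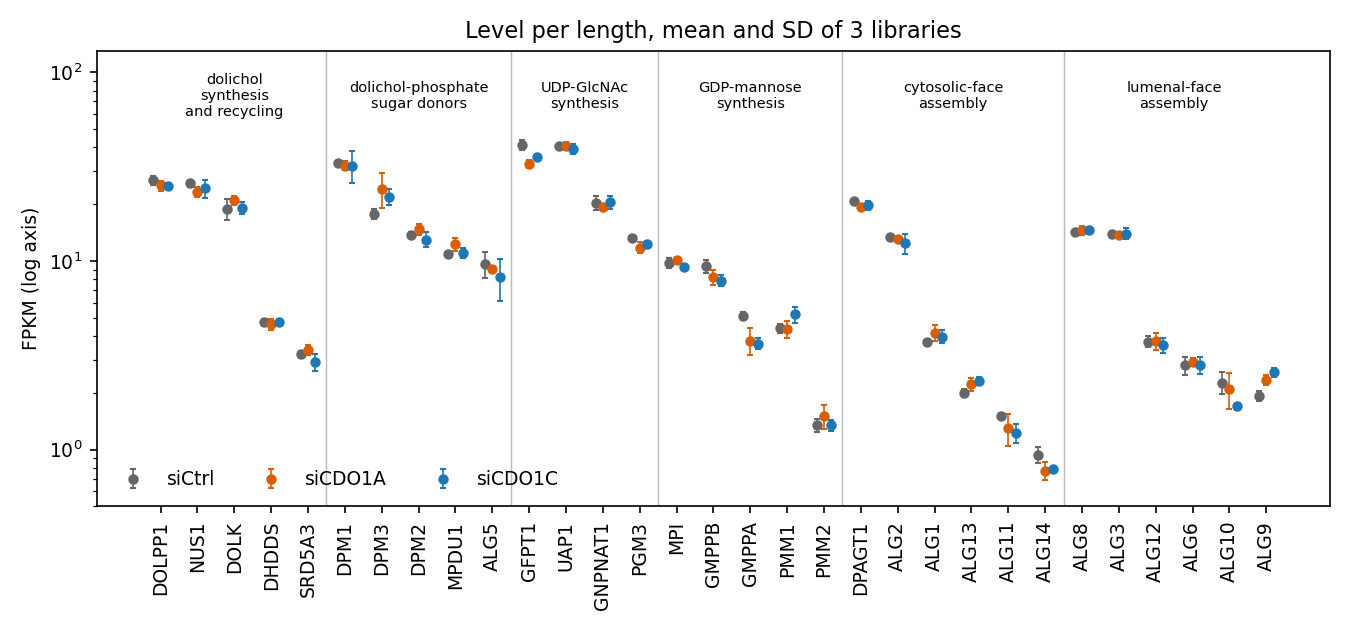
Level per length in FPKM (log axis) of each of the 31 genes in siCtrl, siCDO1A and siCDO1C, as the mean (points) and SD (bars) of 3 libraries, grouped by role. GFPT1 and UAP1 lay near 41 FPKM in siCtrl and ALG14 under 1, and the 3 groups lay close together for most genes.

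Promoter sequences were searched for elements of the unfolded protein response, and those found in the members are shown. The RefSeq promoter table (GRCh38.p14, 250 bases before to 50 after the start) held 30 of the 31 genes, all but ALG10. Both strands were searched for the ER stress response element (CCAAT, 9 bases of any kind, then CCACG) and for the core TGACGTG, sequences known to bind ATF6 and XBP1. The ER stress response element, which holds a CCAAT box of its own, was found in 1 of 30, ALG12, and in 0.129% of the 10811 promoters of tested genes, and TGACGTG in 2 of 30, DHDDS and UAP1, and in 2.51% of those promoters. The cyclic AMP response element TGACGTCA was in 0 of 30 and in 3.16%, the CCAAT box in 14 of 30 and in 36.4%, and the GC box GGGCGG in 21 of 30 and in 69.7%. The stretches of 30 bases around the stress elements are given here 5′ to 3′ on the strand of the gene, with the element in capitals. They lie at chr22:49918549-49918578 (minus strand) for ALG12, chr1:26432284-26432313 and chr1:26432303-26432332 (plus strand) for DHDDS, where the second is read on the opposite strand, and chr1:162561536-162561565 (plus strand) for UAP1. Relative to the RefSeq start, the elements begin at -134 in ALG12, -25 and -6 in DHDDS and 18 in UAP1, after the start. The DHDDS and UAP1 stretches lie inside these genes as placed in the deposited table.
ALG12: tatggcCCAATCCGAGTTCGCCACGagagg
DHDDS, forward: agcgcccaaagaTGACGTGttctgccagcg
DHDDS, reverse: ttctgccagcgcCACGTCAtgaggaagtgc
UAP1: tgctcccggcgcTGACGTGtctgggcggtc

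None of the 3 genes with such an element passed the test with either siRNA. ALG12 (mannosyltransferase of the lumenal face) was at 19.1 to 21.5 CPM in siCtrl, 18.7 to 22.5 in siCDO1A and 17.05 to 20.1 in siCDO1C, with log2 fold changes of 0.01 ± 0.102 (SE) and -0.07 ± 0.110. CRELD2, on the other strand, overlaps ALG12 over 292 bases at this end. DHDDS, the catalytic subunit of the cis-prenyltransferase that builds the dolichol chain, was at 25.8 to 27.2, 23.8 to 27.4 and 25.7 to 27.0 CPM, and its log2 fold changes were -0.04 ± 0.0888 and 0.00 ± 0.0911. UAP1, which makes UDP-GlcNAc in the last step of its synthesis, was at 138 to 142, 132 to 144 and 128 to 144 CPM, with -0.01 ± 0.0576 and -0.06 ± 0.0718. For all 3 the groups overlapped.

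The promoters of the 2 genes that fell are shown for comparison, up to the start in the deposited table, with GC boxes on either strand in capitals. That of GMPPA is chr2:219498641-219498866 (plus strand, 58.4% G and C) and that of GFPT1 chr2:69387255-69387477 (minus strand, 80.3%).
GMPPA: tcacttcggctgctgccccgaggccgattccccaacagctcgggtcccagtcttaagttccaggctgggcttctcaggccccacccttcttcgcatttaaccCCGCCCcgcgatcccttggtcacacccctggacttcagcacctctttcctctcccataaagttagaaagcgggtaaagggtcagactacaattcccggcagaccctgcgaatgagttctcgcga
GFPT1: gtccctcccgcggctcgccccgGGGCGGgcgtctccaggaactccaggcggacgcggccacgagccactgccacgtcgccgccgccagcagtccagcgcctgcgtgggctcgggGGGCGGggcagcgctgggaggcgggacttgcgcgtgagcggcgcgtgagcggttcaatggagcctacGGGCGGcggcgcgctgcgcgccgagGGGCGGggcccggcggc
The stretch before GMPPA holds 1 GC box and that before GFPT1 holds 4, and neither holds an exact match to the stress elements searched. Near matches and other elements were not searched, and a link between these elements and the changes was not tested. The promoters of DPM3 and ALG9, which rose, are not shown.

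Among the genes of GDP-mannose synthesis, GMPPA fell with both siRNAs. GMPPA (ENSG00000144591, chr2:219498867-219506989, plus strand, GRCh38) encodes the regulatory subunit of GDP-mannose pyrophosphorylase, which restrains the catalytic subunit GMPPB when GDP-mannose is plentiful. It was at 28.1, 25.7 and 27.7 CPM in siCtrl, 23.0, 20.8 and 16.6 in siCDO1A and 18.1, 20.7 and 19.4 in siCDO1C. The lowest siCtrl library was above all 6 siRNA libraries. GMPPA fell by 26.2% with siCDO1A (log2 fold change -0.44, SE 0.107, edgeR adjusted p = 0.00833) and fell by 28.8% with siCDO1C (-0.49, SE 0.0995, edgeR adjusted p = 0.00987). The siRNAs did not differ from each other for it beyond the spread (-0.05, 95% interval -0.32 to 0.22). The call with siCDO1A held in all 12 alternatives tried, and that with siCDO1C in 9, the adjusted p of edgeR being up to 0.0767 without siCtrl replicate 1, siCtrl replicate 3 or siCDO1C replicate 1. The antisense gene AC053503.1, which spans GMPPA, had 0 counts, and of its neighbours SPEG, 580 bases upstream, stood at -0.02 with siCDO1A and 0.11 with siCDO1C on the log2 scale (edgeR adjusted p = 0.933 and 0.746). CHPF, 31958 bases downstream and on the minus strand, rose with both siRNAs (1.46, edgeR adjusted p = 6.0e-11, and 1.37, edgeR adjusted p = 3.3e-07). TMEM198, 36674 bases downstream, did not pass with siCDO1A or siCDO1C (0.06 and -0.08, edgeR adjusted p = 0.724 and 0.714). OBSL1, 43740 bases downstream, rose with siCDO1A (0.23, edgeR adjusted p = 0.0374) but not with siCDO1C (-0.01, edgeR adjusted p = 0.965).

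GMPPB, the catalytic subunit, was at 58.1, 63.5 and 68.0 CPM in siCtrl, 59.0, 57.9 and 49.7 in siCDO1A and 56.4, 53.1 and 49.3 in siCDO1C. The siCDO1C libraries lay below all siCtrl libraries and those of siCDO1A overlapped them, and neither comparison passed the threshold (-0.19, edgeR adjusted p = 0.120, and -0.26, edgeR adjusted p = 0.105). Without siCDO1C replicate 2, GMPPB passed with siCDO1C at -0.26. GMPPB overlaps RNF123 on the opposite strand, and how the counting used strand is not given in the sources used here. The level of GMPPA per length relative to GMPPB was 0.545 ± 0.0569 in siCtrl, 0.457 ± 0.0357 in siCDO1A and 0.466 ± 0.0522 in siCDO1C (SD, n = 3). It was lower in each siRNA library than in each siCtrl library, but only just. The siCtrl values were 0.611, 0.511 and 0.514, and the highest siRNA value was 0.499, in siCDO1C replicate 3. This ratio was not tested.

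The other 3 genes of this branch did not pass. MPI, which makes mannose 6-phosphate from fructose 6-phosphate, was at 83.7 to 94.7 CPM in siCtrl, 90.8 to 93.7 in siCDO1A and 80.9 to 86.7 in siCDO1C. PMM2, the phosphomannomutase of this route, was at 9.72 to 11.3, 9.66 to 12.8 and 9.72 to 11.0 CPM. Its relative PMM1 was at 21.0 to 23.4, 19.5 to 23.8 and 24.7 to 29.3 CPM, and its siCDO1C libraries lay above those of both other groups, with a log2 fold change against siCtrl of 0.24 (edgeR adjusted p = 0.226). Summed over the 5 genes, GDP-mannose synthesis stood at 212 ± 11.6 CPM in siCtrl, 202 ± 10.6 in siCDO1A and 193 ± 8.37 in siCDO1C.

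Among the genes of UDP-GlcNAc synthesis, GFPT1 fell with siCDO1A. GFPT1 (ENSG00000198380, chr2:69319769-69387254, minus strand) encodes the amidotransferase that opens the hexosamine pathway and sets its rate. It was at 382, 371 and 341 CPM in siCtrl, 277, 291 and 305 in siCDO1A and 309.8, 307 and 328 in siCDO1C. Here too the siCtrl range lay wholly above that of the siRNA libraries. GFPT1 fell by 20.2% with siCDO1A (-0.33, SE 0.0562, edgeR adjusted p = 0.000477), which held in all 12 alternatives. With siCDO1C its value was -0.22 (SE 0.0723, edgeR adjusted p = 0.105), and it passed only when siCDO1C replicate 2 was left out, at -0.20, among the alternatives tried. The difference between the siRNAs was 0.11 (95% interval -0.05 to 0.28). Its paralog GFPT2 was at 1.58 to 4.04 CPM in all libraries.

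The later enzymes of the route did not pass. GNPNAT1, which acetylates glucosamine 6-phosphate, was at 74.5 to 88.4 CPM in siCtrl, 75.01 to 81.1 in siCDO1A and 75.9 to 88.0 in siCDO1C. PGM3, the mutase that follows, was at 98.6, 98.4 and 93.0 CPM in siCtrl, 85.5, 80.7 and 92.5 in siCDO1A and 89.8, 85.6 and 93.9 in siCDO1C. The siCDO1A libraries of PGM3 lay below those of siCtrl by little (-0.16, edgeR adjusted p = 0.103). The 4 genes of the route summed to 683 ± 29.95 CPM in siCtrl, 594 ± 23.2 in siCDO1A and 622 ± 19.9 in siCDO1C. The sum over all 31 members was 1671 ± 25.0 CPM in siCtrl, 1565 ± 17.2 in siCDO1A and 1571 ± 41.8 in siCDO1C, lower in all 6 siRNA libraries, and GFPT1 by itself had group means of 365, 291 and 315 CPM.

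**Figure D3:**
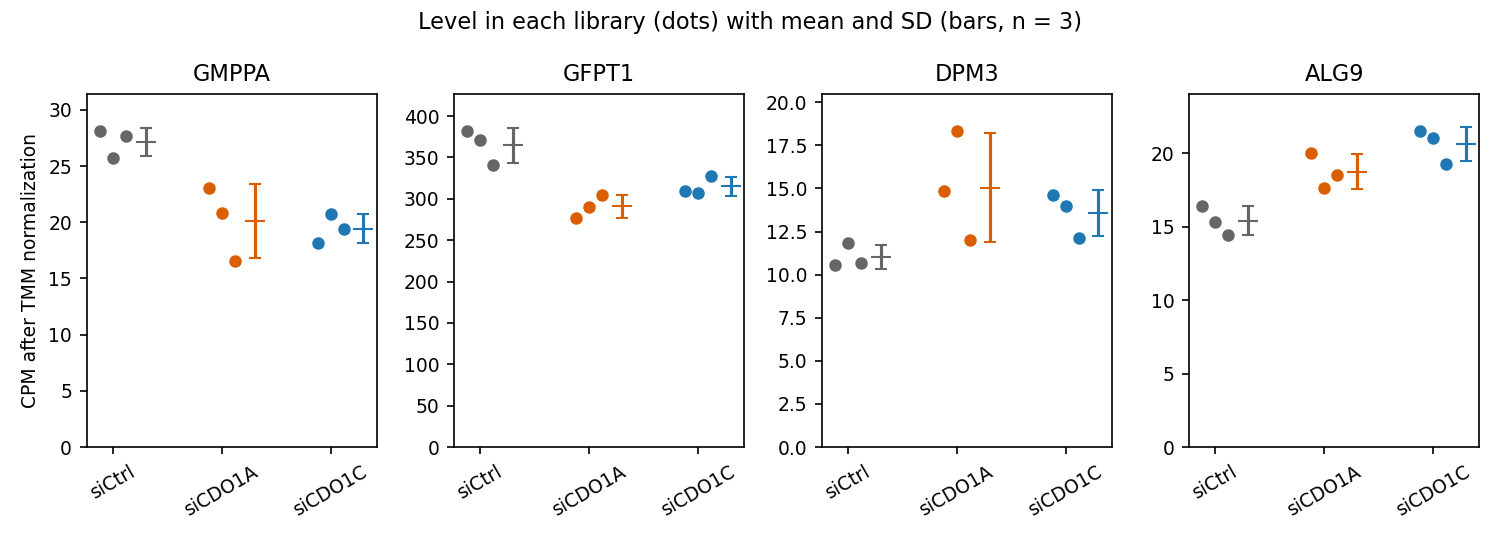
CPM after TMM normalization (y axis, from 0) of GMPPA, GFPT1, DPM3 and ALG9 in each library (dots), with the mean and SD of the 3 libraries of each group (bars). The 6 siRNA libraries lay below all siCtrl libraries for GMPPA and GFPT1 and above them for DPM3 and ALG9.

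Among the donors of dolichol-linked sugars, DPM3 rose with siCDO1A. DPM3 (ENSG00000179085, chr1:155139891-155140595, minus strand) is the small membrane subunit that anchors the catalytic subunit DPM1 of dolichol-phosphate-mannose synthase in the ER. It was at 10.6, 11.8 and 10.7 CPM in siCtrl, 14.8, 18.3 and 12.01 in siCDO1A and 14.6, 13.97 and 12.1 in siCDO1C. The ranges of siRNA and siCtrl libraries did not overlap, but siCDO1A replicate 3 and siCDO1C replicate 3 were only just above the siCtrl range. The rise was 36.5% with siCDO1A (0.45, SE 0.139, edgeR adjusted p = 0.0329), and with siCDO1C the value was 0.30 (SE 0.126, edgeR adjusted p = 0.217). The call is the least firm of the siCDO1A comparison. It was lost in 7 of 12 alternatives. These were DESeq2, the edgeR fit of all 9 libraries and fits without siCtrl replicate 1, 2 or 3 or siCDO1A replicate 1 or 2. The adjusted p of edgeR was up to 0.248 there, and the lowest log2 fold change was 0.277.

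DPM1 and DPM2, the other subunits of that enzyme, did not pass. DPM1 was at 39.0 to 40.2 CPM in siCtrl, 36.9 to 40.9 in siCDO1A and 32.1 to 46.9 in siCDO1C, where replicate 2 was the high library. DPM2 was at 42.3 to 44.5, 42.9 to 49.2 and 38.3 to 45.0 CPM. Per length, DPM3 stood at 0.538 ± 0.0437 of DPM1 in siCtrl, 0.757 ± 0.160 in siCDO1A and 0.694 ± 0.102 in siCDO1C, with overlap between siCtrl and siCDO1C at replicate 2. ALG5, which makes dolichol-phosphate-glucose, was at 17.97, 24.6 and 20.5 CPM in siCtrl, 20.5, 19.8 and 19.7 in siCDO1A and 15.1, 23.2 and 15.6 in siCDO1C. It was the member with the greatest distance of siCDO1C replicate 2 from the other siCDO1C libraries (0.59 on the log2 scale). The siCDO1C comparison gave -0.23 (edgeR adjusted p = 0.486) with that library and -0.46, past the threshold, without it. MPDU1, which is needed for the use of both donors, was at 34.9 to 35.9 CPM in siCtrl, 36.8 to 43.0 in siCDO1A and 33.7 to 38.0 in siCDO1C, above siCtrl in every siCDO1A library (0.17, edgeR adjusted p = 0.166).

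Among the transferases of the lumenal face, ALG9 rose with siCDO1C. ALG9 (ENSG00000086848, chr11:111782195-111871581, minus strand) adds mannose residues of the outer arms from dolichol-phosphate-mannose. It was at 16.4, 15.3 and 14.4 CPM in siCtrl, 19.98, 17.6 and 18.5 in siCDO1A and 21.5, 21.0 and 19.3 in siCDO1C. No siRNA library reached down to the siCtrl range. The rise was 33.4% with siCDO1C (0.42, SE 0.109, edgeR adjusted p = 0.0405) and the value with siCDO1A was 0.28 (SE 0.104, edgeR adjusted p = 0.0755), while the difference between the siRNAs was 0.14 (95% interval -0.10 to 0.37). With batch as a block the value with siCDO1C was 0.41 and did not pass (edgeR adjusted p = 0.0597). The call with siCDO1C was lost in 6 of 12 alternatives. Among them were DESeq2 and the fits without siCtrl replicate 1, 2 or 3 or siCDO1C replicate 1. The adjusted p of edgeR was up to 0.173 there, and the lowest log2 fold change was 0.368. A further gene annotated on the same strand over most of ALG9, AP001781.2, had 0 counts.

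The other lumenal enzymes did not pass. ALG3, which adds the opening lumenal mannose, was at 46.6 to 50.3 CPM in siCtrl, 46.5 to 49.5 in siCDO1A and 46.0 to 52.1 in siCDO1C. ALG6 and ALG8, which add glucose in turn, were at 13.6 to 17.0, 15.5 to 17.0 and 14.2 to 17.3 CPM, and at 48.2 to 49.6, 47.5 to 53.1 and 48.3 to 52.5 CPM. ALG10, which adds the final glucose, was at 11.4, 9.70 and 8.74 CPM in siCtrl, 7.04, 9.496 and 10.95 in siCDO1A and 7.59, 7.06 and 7.66 in siCDO1C. Its siCDO1C libraries lay below siCtrl (-0.42, SE 0.146, edgeR adjusted p = 0.125). ALG10 has a near-identical copy, ALG10B, and reads that match both may be divided or lost, so the value of either is uncertain. ALG10B was higher, at 43.0 to 49.3 CPM in siCtrl, 33.5 to 41.6 in siCDO1A and 35.3 to 43.2 in siCDO1C, and it fell with siCDO1A (-0.34, edgeR adjusted p = 0.0134) but did not pass with siCDO1C (-0.27, edgeR adjusted p = 0.133). Taken as a sum, ALG10 and ALG10B were at 51.8 to 60.7 CPM in siCtrl, 41.0 to 52.5 in siCDO1A and 42.4 to 50.9 in siCDO1C, and the sum was not tested.

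None of the 6 genes of the cytosolic face passed. DPAGT1, which starts the chain by moving GlcNAc phosphate to dolichol phosphate, was at 108 to 112 CPM in siCtrl, 100.0 to 103 in siCDO1A and 98.6 to 109 in siCDO1C, with log2 fold changes of -0.10 ± 0.0584 and -0.08 ± 0.0729. ALG13 and ALG14 together add the next GlcNAc, ALG13 as the catalytic part and ALG14 as its anchor. ALG13 was at 15.4 to 17.1, 16.6 to 19.3 and 17.8 to 19.4 CPM, and ALG14 at 8.11 to 9.88, 6.80 to 8.31 and 7.50 to 7.67 CPM. Their values leaned in opposite directions, 0.15 and 0.20 for ALG13 and -0.27 and -0.26 for ALG14, none of them past the threshold. The level of ALG13 per length relative to ALG14 was 1.97, 2.24 and 2.22 in siCtrl, 3.22, 2.70 and 2.74 in siCDO1A and 3.00, 2.74 and 3.05 in siCDO1C. The ratio was higher in all 6 siRNA libraries than in any siCtrl library. It was 1 of 6 subunit or paralog ratios computed and was not tested.

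ALG1, which adds the earliest mannose, was at 16.7 to 17.3 CPM in siCtrl, 17.3 to 20.8 in siCDO1A and 16.4 to 19.0 in siCDO1C. ALG2, which adds the next ones, was at 39.4 to 40.9, 38.5 to 39.1 and 33.2 to 42.2 CPM, the high value in siCDO1C being that of replicate 2. ALG11, which adds the last mannoses on this face, was at 14.9, 15.7 and 16.1 CPM in siCtrl, 11.0, 13.0 and 16.1 in siCDO1A and 14.02, 11.1 and 12.9 in siCDO1C, with -0.21 and -0.30 (edgeR adjusted p = 0.292 and 0.194). ALG11 shares 7481 bases on the same strand with UTP14C, which was at 12.3 to 16.5 CPM, so the division of reads between them is uncertain. Without siCDO1A replicate 3, ALG11 passed with siCDO1A at -0.37 and PGM3 at -0.22.

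None of the 5 genes of dolichol synthesis and recycling passed either. NUS1, the partner of DHDDS in the cis-prenyltransferase, was at 126, 119 and 117 CPM in siCtrl, 116, 104 and 106 in siCDO1A and 104, 128 and 109 in siCDO1C. Its siCDO1A libraries lay just below siCtrl (-0.14, edgeR adjusted p = 0.129), and without siCDO1C replicate 2, the high library of that group, NUS1 passed with siCDO1C at -0.18. DHDDS per length stood at 0.184 ± 0.00272 of NUS1 in siCtrl, 0.198 ± 0.00732 in siCDO1A and 0.197 ± 0.0201 in siCDO1C. SRD5A3, which takes part in the reduction of polyprenol to dolichol, was at 13.6 to 14.8, 13.9 to 15.9 and 11.5 to 14.1 CPM. DOLK, the kinase that makes dolichol phosphate, was at 33.7 to 43.5, 41.1 to 45.6 and 36.8 to 42.9 CPM. DOLPP1, the phosphatase that returns dolichol pyrophosphate to the cycle, was at 56.9 to 63.3, 53.8 to 60.4 and 55.4 to 57.1 CPM. Summed over the 5 genes, the group was at 261 ± 2.41 CPM in siCtrl, 249.9 ± 13.7 in siCDO1A and 249 ± 14.3 in siCDO1C.

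The ranges of the libraries were also compared without a test. The 3 libraries of siCDO1A did not overlap those of siCtrl for 9 of the 31 genes (3 higher, 6 lower), or 29.03%, beside 30.6% of all genes tested. For siCDO1C this held for 10 (4 higher, 6 lower), or 32.3%, beside 24.2%. All 6 siRNA libraries lay beyond all siCtrl libraries for 4 members, ALG9 and DPM3 above and GFPT1 and GMPPA below, which is 12.9%, beside 14.7% of all genes. The comparisons with siCtrl share the siCtrl libraries. An unadjusted p under 0.05 was found for 8 of 31 members with siCDO1A (ALG9, DPM3, MPDU1, NUS1, GFPT1, PGM3, GMPPA and GMPPB), beside 27.9% of all genes tested, and for 8 with siCDO1C (ALG9, ALG10, ALG11, DPM3, GFPT1, PMM1, GMPPA and GMPPB), beside 18.6%.

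Between the siRNAs, 0 of 31 members passed in edgeR and 0 in DESeq2, and 1, PMM1, had an unadjusted p under 0.05 (0.25, edgeR adjusted p = 0.624). Of all genes tested 0.444% passed, and 7.65% had an unadjusted p under 0.05. The ranges did not overlap for 3 members, or 9.68%, beside 12.7% of all genes, with PMM1 and GFPT1 higher and MPI lower in siCDO1C. For 30 of 31 members the 95% interval of the difference lay inside 1.5-fold in either direction, the exception being ALG10 (-0.31, 95% interval -0.67 to 0.04).

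The spread between replicates of the members was like that of other genes. Their median coefficient of variation of CPM was 5.28% in siCtrl, 6.59% in siCDO1A and 6.76% in siCDO1C, and for the 9878 genes tested in the same range of mean CPM it was 5.60%, 6.76% and 8.58%. The distance of siCDO1C replicate 2 from the mean of the other siCDO1C libraries had a median size of 0.11 (log2) over the members and 0.17 over those genes. Leaving it out raised the members called with siCDO1C from 2 to 6, ALG5, NUS1, GFPT1, GMPPA and GMPPB lower and ALG9 higher, while the share of all genes called rose to 13.3%.

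The genes that use or accompany these products were taken as 5 further lists. Of their 78 genes, 4 rose and 13 fell with siCDO1A (21.8%, beside 14.8% of all genes) and 2 rose and 5 fell with siCDO1C (8.97%, beside 4.77%). With the block these counts were 3 higher and 8 lower with siCDO1A and 2 higher and 1 lower with siCDO1C. Of all genes, 8.73% and 4.08% passed with the block. The difference between these lists and the members was not tested. Without siCDO1C replicate 2 the count with siCDO1C was 20, beside 13.3% of all genes. Without siCtrl replicate 1 or 3 or siCDO1C replicate 1 it was 1, beside 1.79%, 1.69% and 2.37%. Of the 12 subunits of the oligosaccharyltransferase, 2 fell with siCDO1A (16.7%, beside 14.8% of all genes) and 4 with siCDO1C (33.3%, beside 4.77%), and 0 rose. MAGT1, an oxidoreductase subunit, fell with both siRNAs (-0.22, edgeR adjusted p = 0.00944, and -0.28, edgeR adjusted p = 0.0414). The catalytic subunit STT3B and RPN1, both at -0.26, and DDOST at -0.29 fell with siCDO1C, and OSTC fell with siCDO1A at -0.20. With the block 0 of the 12 passed with either siRNA in edgeR, the adjusted p of MAGT1 being 0.0613 and 0.0749 and that of DDOST with siCDO1C 0.0592. These subunits were abundant, DDOST being at 239.6 CPM in siCtrl and 197 in siCDO1C.

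A list of 16 genes of dolichol-phosphate-mannose use and of flipping also holds the glucosyltransferase ALG10B. Of these 16, 1 rose and 4 fell with siCDO1A, ALG10B among those that fell (31.25%, beside 14.8% of all genes). With siCDO1C 1 fell (6.25%, beside 4.77%). DPY19L1, a C-mannosyltransferase, went from 36.7 CPM in siCtrl to 25.2 in siCDO1A and 24.4 in siCDO1C and fell with both (-0.54, edgeR adjusted p = 0.000175, and -0.60, edgeR adjusted p = 0.00229). DPY19L4 (-0.50) and the O-mannosyltransferase TMTC2 (-0.36) fell and TMTC1 (0.36) rose with siCDO1A. Of 22 other genes of sugar nucleotide synthesis and transport, 3 fell with siCDO1A (13.6%, beside 14.8% of all genes). With siCDO1C 1 rose (4.55%, beside 4.77%). Those that fell were the transporters SLC35C1 (-0.33) and SLC35A3 (-0.30) and the sialic acid activating CMAS (-0.28). CMAS was not past the threshold with the block (edgeR adjusted p = 0.0662). The gene that rose was NANP of sialic acid synthesis (0.56).

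Of 20 genes of N-glycan trimming and Golgi branching, 1 rose and 4 fell with siCDO1A (25%, beside 14.8% of all genes). With siCDO1C 1 rose (5%, beside 4.77%). With the block 1 rose and 2 fell with siCDO1A, beside 8.73% of all genes, and 1 rose with siCDO1C, beside 4.08%. MOGS, the glucosidase that removes the glucose ALG10 adds, rose with both siRNAs, from 42.1 CPM to 58.3 and 54.9 (0.47, edgeR adjusted p = 0.000149, and 0.38, edgeR adjusted p = 0.0136). MGAT4A, a branching transferase, fell with siCDO1A from 38.6 to 22.2 CPM and was at 38.1 in siCDO1C, and here the siRNAs differed (0.77, edgeR adjusted p = 0.00309). The mannosidases MAN1A1 (-0.58) and MAN1A2 (-0.23) also fell with siCDO1A, MAN1A2 not with the block (edgeR adjusted p = 0.129). The mevalonate route supplies the farnesyl diphosphate that dolichol is built on. Of 8 genes of this route, MVK (0.35) and FDPS (0.26) rose with siCDO1A (25%, beside 14.8% of all genes), MVK alone also with the block. With siCDO1C 0 passed in edgeR, beside 4.77% of all genes. An unadjusted p under 0.05 in edgeR was found for 5 of 8 with siCDO1A, beside 27.9% of all genes, and for 4 of 8 with siCDO1C, beside 18.6%. The median log2 fold change of the 8 genes was 0.14 with siCDO1A and -0.15 with siCDO1C.

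**Figure D4:**
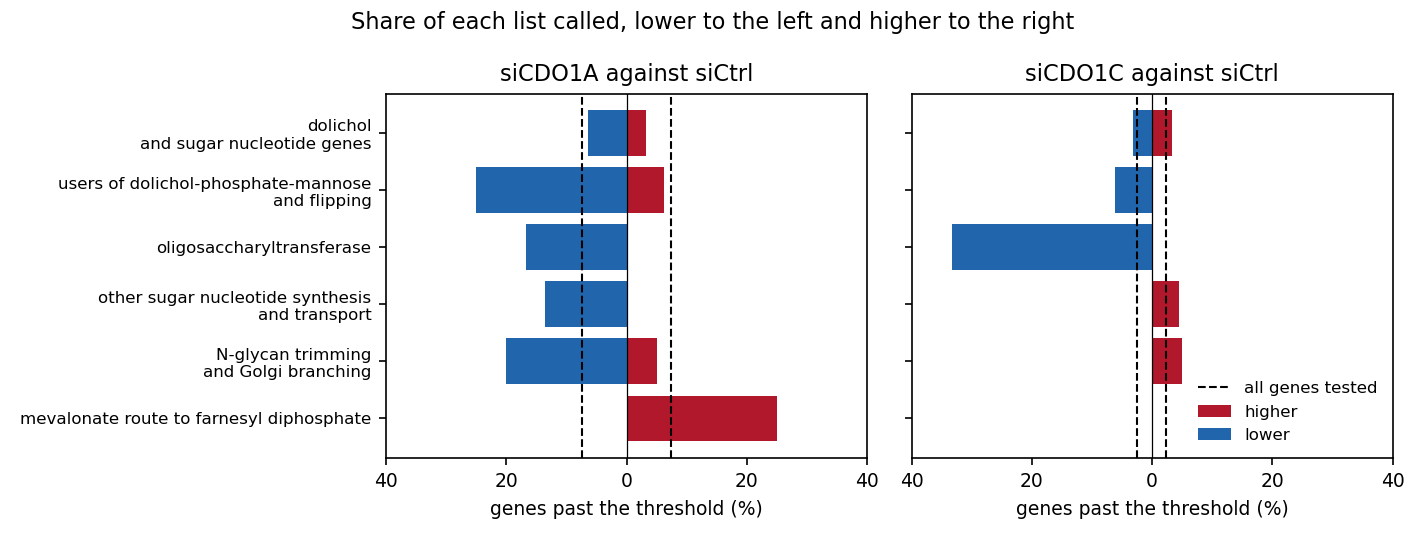
Percent of the genes tested in each list that passed an adjusted p of at most 0.05 (x axis), lower to the left in blue and higher to the right in red, with siCDO1A and siCDO1C against siCtrl, and the share of all 15555 genes tested in each direction (dashed lines). The dolichol and sugar nucleotide genes stayed inside the dashed lines with siCDO1A, 1 higher and 2 lower of 31, and lay just outside both with siCDO1C, 1 higher and 1 lower of 31, and the oligosaccharyltransferase with 4 of 12 lower was the longest bar with siCDO1C, of which 0 passed with batch as a block.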

How the data were processed

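Poly(A) RNA of VCaP cells was made into directional libraries and sequenced from both ends. Per the labels and the study's methods, the authors cleaned the reads, aligned them (HISAT2 2.0.5 and hg38 are named in the submitters' processing notes) and used featureCounts to assign them to genes. The strand and multiple-mapping settings and the annotation release are not given in the sources used here. The deposited values are whole-number counts without normalization, 1 column per library, used as deposited. A further 3 columns match no sample and were used in no step.

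Each comparison was fitted on its 6 libraries with edgeR 4.0.16 in R 4.3.3 (filterByExpr with a minimum count of 10 over 9 libraries, TMM, robust quasi-likelihood test, Benjamini-Hochberg adjustment over 15555 genes), after the code was tested on simulated data. DESeq2, the authors' tool, was an alternative here in version 1.42.0, with other normalization, filters, a replicate block, a stricter threshold and each library left out in turn. SE was the log2 fold change over the root of F. The labels call the libraries biological replicates. The SEs and intervals come from the edgeR quasi-likelihood fit, which includes the spread between replicates as well as counting error. The members and lists were chosen with earlier results of these data known. All members are named, those past the threshold with their values in every library, with up to 4 genes per other list that passed with the largest changes. OSTC and ALG10B, which also passed, are named beyond that rule. Of 80 genes listed, 78 were found by symbol. The labels give each replicate number as a batch number too. The main fits held no batch term, so their fold changes, SEs, intervals and adjusted p-values do not pair same-numbered libraries. The fit with batch as a block is given where it changed a call on a named gene or a count over the members or all lists. Correlations between same-numbered libraries in their deviations from the group means, over 11332 genes of at least 5 CPM, ran from -0.376 to 0.378. They thus had no common sign. Promoters are those of RefSeq for GRCh38.p14.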

Additional observations from a re-analysis of the deposited data

How the results depend on the processing

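Of 5 calls on single members, 2 (GFPT1 and GMPPA with siCDO1A) held in all 12 alternatives, 3 were lost in some, as given with each gene, and 0 reversed. Members called with siCDO1A numbered 3 and, leaving out each replicate, 2 to 5, the 5 being without siCDO1A replicate 3, where 22.2% of all genes passed. In the fits with 1 library left out and 2 members called, 8.31% to 13.1% of all genes passed. With siCDO1C the count was 2. It was 1 in DESeq2 (5.81% of all genes), 1 with the replicate block (4.08%) and 1 at an adjusted p of at most 0.01 (1.81%). Leaving out each replicate, it was 0 to 6. It was 0 without siCtrl replicate 1 or 3 or siCDO1C replicate 1 (1.79%, 1.69% and 2.37% of all genes). It was 6 without siCDO1C replicate 2 (13.3%). Members called with both siRNAs numbered 1, and 0 to 2 leaving out each replicate. Between the siRNAs the count was 0 in every alternative run, where 0.116% to 2.87% of all genes passed. For the 5 other lists, the count with siCDO1A was 17, with the share of all genes given in brackets for the alternatives. It was 10 in 1 fit of all 9 libraries (8.80%), 11 with the replicate block (8.73%) and 8 at an adjusted p of at most 0.01 (7.12%). Leaving out each replicate, it was 9 to 25 (8.31% to 22.2%). With siCDO1C it was 7, and 3 with the block (4.08%), 1 at 0.01 (1.81%) and 1 to 20 leaving out each replicate (1.69% to 13.3%).

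With the replicate block, members called were 3 with siCDO1A and 1 with siCDO1C, where ALG9 no longer passed. Of the calls on members, the block changed no other. With 3 libraries a group, SEs of the members ran up to 0.161 (log2) against siCtrl, which limits the changes that could be called.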
